A study of Mus musculus with 5 samples.

Results

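Guanylate binding proteins (GBPs) and immunity-related GTPases (IRGs) are described here in regulatory T cells (Tregs), a CD4 T cell lineage set by the transcription factor Foxp3 that holds other immune cells in check. The set holds 10 genes, Gbp2 to Gbp9, Igtp and Irgm1, matched by symbol among the 24084 genes of the count table, and all 10 were found and passed the filter on low counts. RNA sequencing was made from Tregs sorted from skin-draining lymph nodes (3 libraries) and from skin (2 libraries) of mice aged 13 days. All libraries came from the Foxp3-DTR line, named Foxp3-DTR/GFP in the series, in which cells using the Foxp3 locus carry the receptor for diphtheria toxin together with a fluorescent reporter. No treatment is named. Sort markers and the animals that went into each library are not stated, so p-values measure only how far these libraries spread, and that spread may be technical.

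GBPs are large GTPases of the dynamin superfamily that interferon-γ and, for many of them, type I interferons switch on. They assemble on the vacuoles and membranes of intracellular pathogens and help trigger inflammasomes. IRGs are smaller GTPases of the same defence. Irgm1 and Igtp (also called Irgm3) belong to the regulatory IRGs, which sit on host membranes and hold the effector IRGs in check. In T cells these genes are known as readouts of interferon signalling, and Irgm1 is known to protect lymphocytes from death driven by interferon-γ.

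The members lie on 3 chromosomes (mm10, GENCODE M21). Gbp5, Gbp7, Gbp3 and Gbp2 lie in a row on chromosome 3, from 142493978 to 142638008, and Gbp8, Gbp9, Gbp4 and Gbp6 on chromosome 5, from 105014150 to 105293698. Irgm1 (48861968 to 48871683) and Igtp (58199556 to 58207591) lie on chromosome 11. All 10 are annotated as protein-coding. The GTP-binding loop at the core of these enzymes is a short motif that starts with glycine and ends in lysine or methionine followed by serine, and it was found in the longest reading frame of every member (GENCODE M21 transcripts). The 24 bases that encode it are shown because they separate the GBPs from the regulatory IRGs and show how alike the paralogs are. Capitals mark the codon of the residue that differs between the GBPs and the regulatory IRGs among the members.
Gbp2: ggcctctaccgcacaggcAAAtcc
Gbp5: ggtctttatcgcacaggcAAAtcc
Gbp7: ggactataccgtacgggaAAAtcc
Gbp3: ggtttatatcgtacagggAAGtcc
Gbp4: ggatggtcccatacagggAAGtcc
Gbp6, Gbp8 and Gbp9: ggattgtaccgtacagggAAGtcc
Igtp and Irgm1: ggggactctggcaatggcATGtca
The marked codon encodes lysine in all 8 GBPs and methionine in Igtp and Irgm1. Gbp6, Gbp8 and Gbp9 are identical over these bases, and so are Igtp and Irgm1. Among the members, Gbp2 and Gbp5 alone end in a cysteine followed by a short aliphatic stretch, the signal by which a lipid anchor is attached.

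Likeness and overlap bear on the counts in different ways. Reads aligned to more than 1 place, and reads at 1 place where genes overlap, are each tallied apart in the table and given to no gene. Of the windows of 50 bases in the longest transcript of Gbp6, 59.7% also occurred in a transcript of another gene, most often Gm43302, whose exons overlap it. The share was 18.2% for Gbp8, 12.8% for both Gbp4 and Gbp7, 12.3% for Igtp (all shared with Irgm2), 8.31% for Gbp9, 4.79% for Gbp3, 2.45% for Gbp5 and 2.07% for Gbp2. No window of Irgm1 was shared. These shares also count places where annotated exons overlap on the same strand, which need no second copy. Exons of Gm43302 overlap 29.0% of the exon bases of Gbp6, those of Gm43802 11.3% of Gbp7, and those of Irgm2 8.01% of Igtp. Gbp4, Gbp8 and Gbp9 overlap each other in under 2% of theirs. Whether the annotation used for counting held all these genes is not stated. Levels of Gbp6 and, to a lesser degree, of the other sharing members may therefore be undercounted by an unknown amount.

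Interferon-response motifs are shown for the members whose promoters are in the RefSeq table (GRCm38.p6), which matched 6 members: Gbp2, Gbp3, Gbp5, Gbp7, Igtp and Irgm1. Each window runs from 250 bases before to 50 after a transcript start. It was searched for the core of the interferon-stimulated response element (ISRE), GAAANNGAAA or its reverse complement TTTCNNTTTC, and for the gamma-activated site (GAS), TTCNNNGAA, which is its own reverse complement. Both kinds of element are known from promoters that interferons switch on. The stretches of 60 bases that hold the ISRE match nearest the start follow, with ISRE and GAS matches in capitals.
Gbp2, chr3:142620579-142620638, plus strand: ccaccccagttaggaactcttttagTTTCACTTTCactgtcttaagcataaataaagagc
Gbp3, chr3:142559980-142560039, plus strand: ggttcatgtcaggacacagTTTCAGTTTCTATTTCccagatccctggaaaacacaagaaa
Gbp5, chr3:142496744-142496803, plus strand: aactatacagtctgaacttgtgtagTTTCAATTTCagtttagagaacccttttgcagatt
Gbp7, chr3:142530258-142530317, plus strand: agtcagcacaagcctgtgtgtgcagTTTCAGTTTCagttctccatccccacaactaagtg
Igtp, chr11:58199497-58199556, plus strand: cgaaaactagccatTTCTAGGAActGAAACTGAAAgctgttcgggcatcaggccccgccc
Irgm1, chr11:48871410-48871469, minus strand: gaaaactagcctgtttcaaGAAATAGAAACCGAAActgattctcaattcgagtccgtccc
All 6 members had an ISRE match in a window, in Gbp3 and Irgm1 as 2 matches that overlap. These members have 7 windows, since Gbp3 has a further one, which held no ISRE or GAS match. A GAS match was found in Gbp5, Gbp7 and Igtp. Of 32851 promoter windows in the table, 3.44% held an ISRE match, 8.30% a GAS match and 0.454% both. A match describes letters and is not a shown binding site.

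**Figure D1:**
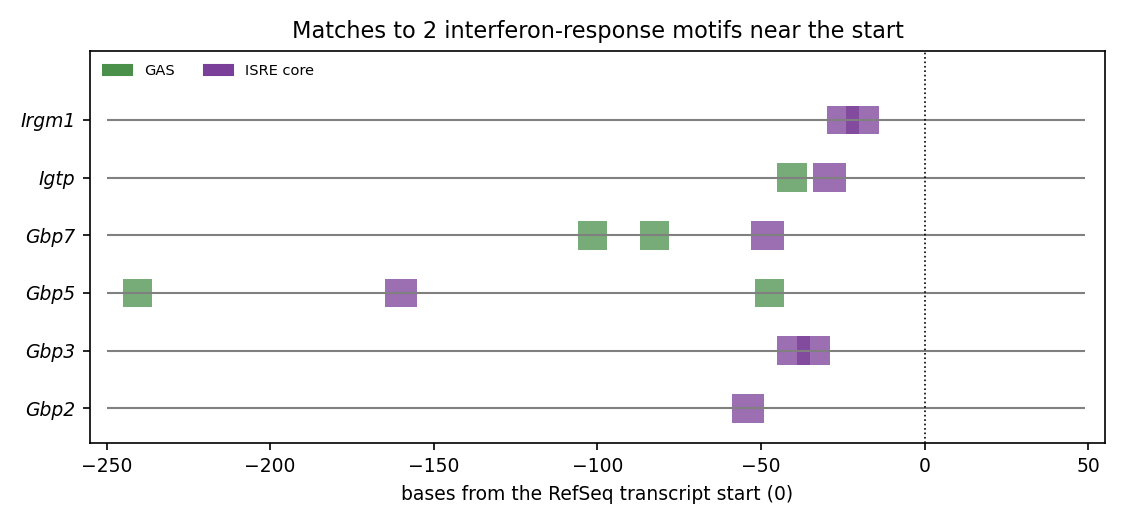
Position of each GAS match (green) and ISRE core match (purple) in the promoter windows of 6 members, in bases from the RefSeq transcript start at 0; grey lines span the windows searched. Matches lie before the start in all 6, and of the ISRE matches that of Gbp5, which starts 165 bases before, is the farthest from it.

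Gene counts per library were 10468795 to 14595018, and 9192 and 9894 genes had a count in the skin libraries against 12173 to 12540 in the lymph node libraries. Foxp3 was at 94.8 ± 5.09 CPM (SD, n = 3) in lymph node and 97.8 ± 28.1 CPM (SD, n = 2) in skin Tregs. CPM, the usual depth-normalised count, is a gene's count relative to the scaled total of its library. Of 13 macrophage markers in the table, 5 were at 0 in all lymph node libraries, among them Pf4 and Cd163, and none was at 0 in both skin libraries. Their summed level was 12.9 to 26.9 CPM in lymph node and 1489 to 2108 CPM in skin libraries. Lyz2 rose from 8.61 ± 3.23 to 412 ± 49.5 CPM (edgeR adjusted p = 0.0221) and C1qb from 0.611 ± 1.06 to 390 ± 242 CPM (0.0496). The 10 dendritic cell markers summed to 6.59 to 14.3 CPM in lymph node and 274 to 412 CPM in skin libraries. In lymph node 5 were at 0, among them Cd209a and Clec10a, which were called higher. The other 3 of these, Itgax, Cd207 and Clec9a, had no count in any library. The 10 keratinocyte markers summed to 12.3 to 15.6 CPM and 179 to 207 CPM, with 4 at 0 in lymph node, among them Krt14, called higher, while Sfn was not. Krt1 and Lor, 2 of these 4, had no count in any library. Krt10 went the other way, at 3.16 CPM in lymph node and without a count in skin. NK, innate lymphoid and CD8 T cell markers summed to 150.1 to 241 CPM and 478 to 799 CPM, most of it Nkg7, while Cd8a had no count in skin and Cd8b1 did not pass. B cell markers, led by Cd79b and Ms4a1, summed to 83.3 to 231 CPM and 22.1 to 88.4 CPM, with 6 of 8 at 0 in skin. Those of fibroblasts and endothelium summed to 352 to 500.2 CPM and 4.79 to 60.7 CPM, nearly all Pecam1, so this sum follows Pecam1 alone. In this list Cdh5, Vwf and Pdgfra had no count in any library. Mean levels of Col1a1, Col3a1, Dcn, Lum and Kdr were higher in skin and that of Col1a2 lower, each under 2 CPM. Mast cell markers, led by Kit and Hdc, summed to 15.3 to 26.4 CPM and 0 to 12.8 CPM. Of 9 Treg and T cell genes, 2 were higher (Ctla4 and Ikzf2) and 1 was lower (Lck), where 2.4% and 5.3% of all tested genes were. Both skin libraries lay below all lymph node libraries for 5 of the 9, a pattern of 33.5% of all tested genes. These 5 were Lck and Cd4 and the T cell receptor subunit genes Cd3e, Cd3d and Cd3g, whose log2 fold changes of -0.83, -0.90 and -0.76 did not pass (adjusted p = 0.0545, 0.0659 and 0.118). T cell receptor subunit genes thus had values below lymph node alongside most members, and their part in the results was not tested. Myeloid cells and keratinocytes also express GBPs and IRGs, and the part of these cells in the results below was not tested. In sorted bulk samples, fewer cells of a type and less RNA per cell cannot be told apart.

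Most of the GTPases had lower values in skin than in lymph node Tregs and Gbp5 had higher ones, but none passed the test. By edgeR's quasi-likelihood test, 0 of the 10 members were higher and 0 lower at an adjusted p under 0.05, where 2.4% of the 11437 tested genes were called higher and 5.3% lower, 7.7% in all. At an unadjusted p under 0.05 there were 3 (Gbp5, Igtp and Gbp9), against 29.5% of all tested genes. Both skin libraries lay below all lymph node libraries for 6 members (Gbp2, Gbp3, Gbp8, Gbp9, Igtp and Irgm1), a pattern of 33.5% of tested genes. They lay above for Gbp5, a pattern of 16.8%, and the groups overlapped for Gbp4, Gbp6 and Gbp7. The log2 fold change, skin relative to lymph node, was negative for 8 members, and for 55.7% of all tested genes. Its median was -0.85 over the members and -0.21 over all tested genes. By limma-voom, another test of the same counts, the median over all tested genes was -0.85. In that fit 9 members were negative, from -3.77 for Irgm1 to -0.013 for Gbp7, and Gbp5 was at 2.14. The background median thus depends on the fit and can be set only against member values of the same fit. DESeq2 called Gbp5 higher and Igtp lower, 1 member in each direction, where it called 9.44% and 16.6% of 12925 genes.

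**Figure D2:**
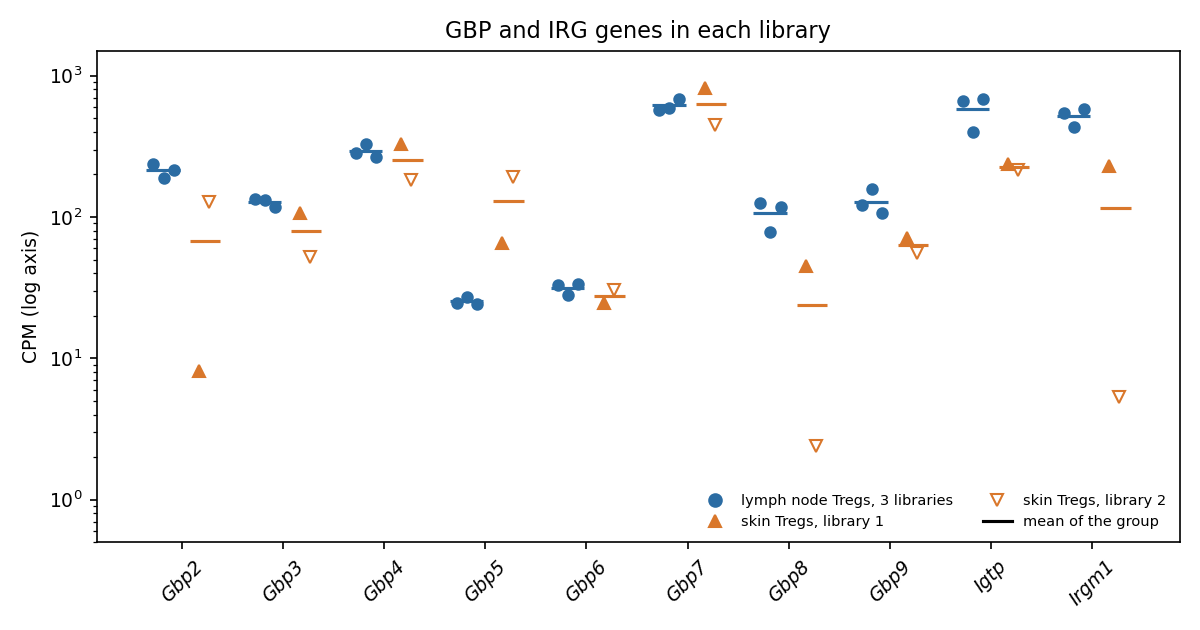
CPM of the 10 members on a log axis in each lymph node library (blue circles) and in skin library 1 (filled triangles) and 2 (open triangles), with group means as lines. The lymph node libraries sit close together, while Gbp2, Gbp8 and Irgm1 differ by over 10-fold between the skin libraries.

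Gbp5, which promotes assembly of the NLRP3 inflammasome and carries the lipid anchor signal, was the member with higher values in skin. It was at 24.7, 27.04 and 24.3 CPM in the lymph node libraries and at 65.7 and 193 CPM in the skin libraries. The lymph node libraries hardly differed, and both skin libraries were above them, library 2 most. The log2 fold change was 2.35 (SE 0.58), but edgeR's adjusted p of 0.0622 missed the threshold. DESeq2 gave an adjusted p of 0.00273. Among the counts of all 10 members, Gbp5 made up 0.861 to 1.14% in the lymph node libraries, 3.40% in skin library 1 and 14.7% in skin library 2. The summed macrophage markers, at 1489 and 2108 CPM in skin libraries 1 and 2, were likewise higher in the second. Within that list Mrc1, Itgam and Cd14 were higher in library 1. The sums of dendritic cell, keratinocyte, NK and CD8 T cell, B cell, and Treg and T cell markers were also higher in library 2. Those of fibroblasts and endothelium and of mast cells were higher in library 1. The part of any of these cells in the Gbp5 values was not tested.

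Igtp was the member with the smallest adjusted p. It was at 664, 398 and 680.4 CPM in the lymph node libraries and at 236 and 215 CPM in the skin libraries. The skin libraries were alike and below the lowest lymph node library. The log2 fold change was -1.36 (SE 0.31) with an edgeR adjusted p of 0.0545, just short of the threshold, and with the stricter filter, under which 8.93% of genes were called lower, Igtp passed at 0.0473. Irgm2, with which Igtp shares sequence, was at 109, 119 and 159 CPM in lymph node and at 136 and 267 CPM in skin libraries (log2 fold change 0.64 with an SE of 0.39, adjusted p = 0.351).

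Irgm1, the partner of Igtp among the regulators, was at 548, 436 and 577 CPM in lymph node libraries, but at 228 CPM in the first and 5.29 CPM in the second skin library. Both skin values lay below the lymph node range, and they differed 43.1-fold from each other, resting on 2435 and 53 counts. With that spread the log2 fold change of -2.16 had an SE of 1.36 (edgeR adjusted p = 0.366). Irgm1 shares no window of 50 bases with another gene. Igtp, in contrast, differed 1.10-fold between the same 2 skin libraries.

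Gbp2, the other GBP with a lipid anchor signal, had the opposite imbalance. Lymph node libraries were at 238, 188 and 215 CPM, the first skin library at 8.14 CPM and the other at 128 CPM. The log2 fold change of -1.65 had an SE of 1.07 (edgeR adjusted p = 0.376). Thus skin library 1 was the low one for Gbp2 and skin library 2 for Irgm1.

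Gbp8 followed the pattern of Irgm1, with 126, 78.2 and 118 CPM in lymph node libraries, 45.1 CPM in the first skin library and 2.40 CPM in the other. Its skin library 2 value rests on 24 counts. The log2 fold change was -2.17 (SE 1.20, edgeR adjusted p = 0.300). Such gaps were common in these libraries. A difference of over 10-fold between the 2 skin libraries was found for 3 of the 10 members, and for 26.4% of all tested genes or 21.4% of the 6660 with a lymph node mean of at least 20 CPM.

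Its neighbours on chromosome 5 varied less. Gbp9 was at 122, 157 and 107 CPM in lymph node and 71.4 and 55.7 CPM in skin libraries, with no overlap (log2 fold change -1.02 with an SE of 0.37, edgeR adjusted p = 0.140). Gbp4 was at 284, 329.7 and 265 CPM in lymph node libraries, and at 327 CPM and 183 CPM in skin libraries 1 and 2. Skin library 1 thus lay within the lymph node range and skin library 2 below it (log2 fold change -0.20 with an SE of 0.32, adjusted p = 0.744). Gbp6 was at 32.9, 28.1 and 33.4 CPM in lymph node and 24.5 and 30.5 CPM in skin libraries, overlapping (log2 fold change -0.19 with an SE of 0.63, adjusted p = 0.885).

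On chromosome 3, Gbp7, which is linked to oxidative and autophagic killing in macrophages, was at 568, 594 and 689 CPM in lymph node libraries. In skin it was at 819.8 CPM in library 1 and 449 CPM in library 2, on both sides of the lymph node range. The log2 fold change was 0.04 (SE 0.30, edgeR adjusted p = 0.953), and its sign turned with the scaling. Its neighbour Gbp3 was at 134, 132 and 118 CPM in lymph node and 107 and 52.1 CPM in skin libraries, without overlap (log2 fold change -0.68 with an SE of 0.42, adjusted p = 0.359).

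**Figure D3:**
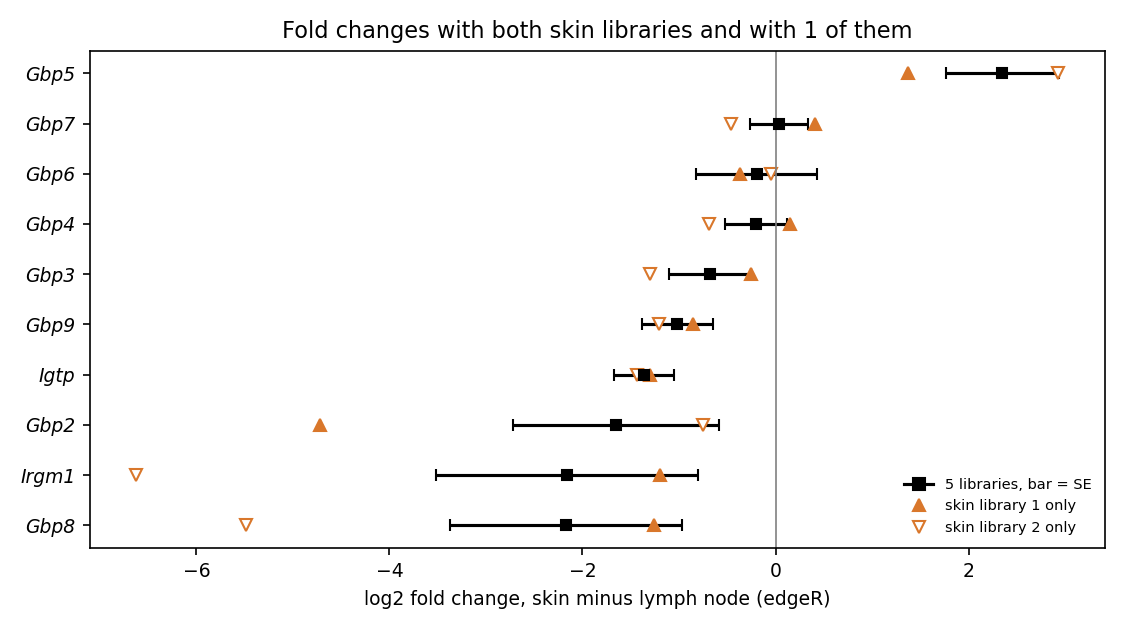
Log2 fold change of each member, skin minus lymph node, from edgeR with all 5 libraries (black squares, bars are SE) and with skin library 1 only (filled triangles) or skin library 2 only (open triangles). Gbp5 stays right of 0 and Igtp left of it at close values, while Gbp2, Gbp8 and Irgm1 move by more than 3 log2 units with the library used, and Gbp4 and Gbp7 change sign.

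Since the skin libraries differed, each was also compared alone with the 3 lymph node libraries, assuming that the lone skin library varies as those do. With skin library 1 alone, 1 member was higher and 4 lower, where 14.4% of 12523 genes were higher and 24.8% lower. With skin library 2 alone, 1 was higher and 5 lower, where 16.9% of 12456 genes were higher and 31.8% lower. Gbp5 passed as higher in both, as did 5.92% of the 12270 genes tested in both fits. Gbp8, Igtp and Irgm1, 3 members, passed as lower in both, as did 14.8% of those genes. For Gbp5 the log2 fold change was 1.37 with skin library 1 (edgeR adjusted p = 0.0264) and 2.92 with skin library 2 (0.000273). For Igtp it was -1.31 (adjusted p = 0.0278) and -1.44 (0.0152). Irgm1 had -1.20 with skin library 1 (adjusted p = 0.0155) and -6.62 with skin library 2 (0.000105), and Gbp8 had -1.26 (0.0415) and -5.48 (0.000253). Gbp2 passed with skin library 1 alone, at -4.72 (adjusted p = 0.000367), against -0.75 with skin library 2 (0.0801). Gbp3 and Gbp9 passed with skin library 2 alone, at -1.30 (0.0133) and -1.21 (0.0277).

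Summed over neighbours, the GBP genes of chromosome 3 were at 964, 940.4 and 1046 CPM in lymph node libraries and at 1001 and 821 CPM in skin libraries. Skin library 1 lay within the lymph node range there, and Gbp7 made up most of the sum. The chromosome 5 genes summed to 565, 593 and 523 CPM against 468 and 271 CPM, without overlap. Igtp and Irgm1 together reached 1213, 833 and 1258 CPM in lymph node libraries, but 464 and 221 CPM in skin libraries. The IRG pair thus lay lower in skin by a wider margin than either GBP group, a difference that was not tested.

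**Figure D4:**
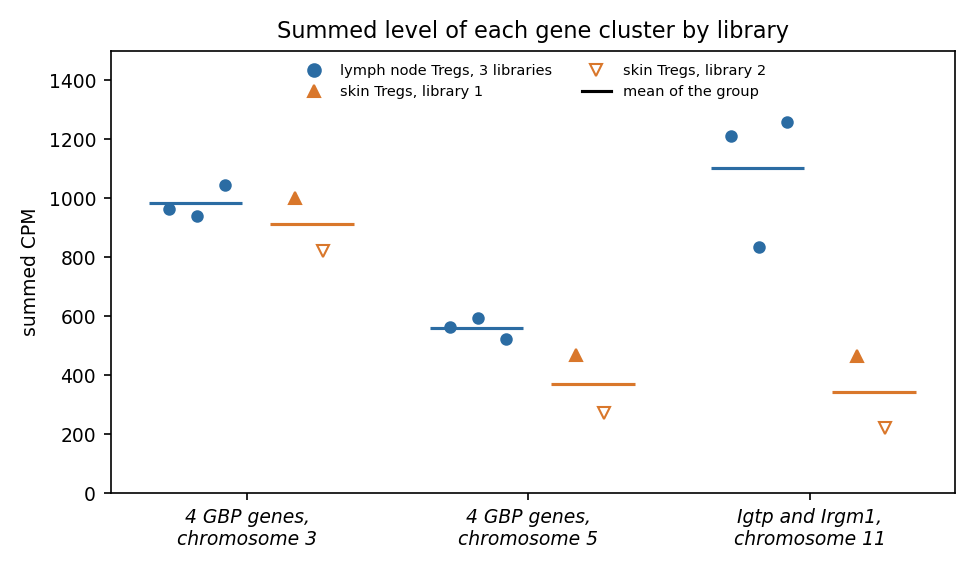
Summed CPM of the 4 GBP genes on chromosome 3, the 4 on chromosome 5 and the IRG genes Igtp and Irgm1 in each lymph node library (blue circles) and skin library (triangles), with group means as lines, from 0. The chromosome 3 groups overlap, while the IRG sums are 833 to 1258 CPM in lymph node and 221 to 464 CPM in skin libraries.

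Levels can be set against each other between genes only per length. Per kilobase of annotated exon, Igtp was the highest member in lymph node Tregs, at 287 ± 78.5 CPM per kilobase (SD, n = 3), apart from Gbp7 at 110 ± 11.4 CPM per kilobase. Irgm1 (89.6 ± 12.9) and Gbp2 (84.8 ± 9.86) followed with overlapping libraries. Gbp3, Gbp4, Gbp8 and Gbp9 formed a middle range from 39.2 to 24.9 CPM per kilobase in which neighbours overlapped. Gbp6 (5.28 ± 0.495) and Gbp5 (3.82 ± 0.224) were lowest and apart from each other. In skin, Gbp7 (113 ± 46.8 CPM per kilobase, n = 2) and Igtp (112 ± 7.22) led with overlapping libraries and were apart from Gbp4 (34.0 ± 13.6). Gbp5 ranked 10 in lymph node and 7 in skin, at 19.5 ± 13.5 CPM per kilobase, and neighbours from Gbp4 down to Gbp6 overlapped. Irgm1 ranked 3 in lymph node and 6 in skin. With the length of the longest transcript in place of all exons, Irgm1 ranked above Gbp7 in lymph node with overlapping libraries, Gbp6 and Gbp5 overlapped there, Gbp4 ranked above Gbp3 and apart from it, and Gbp5 ranked 4 in skin.

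The family holds further genes that were not among the 10. Of 17 others listed, 16 were in the table and 11 were tested, with 0 higher, 2 lower and 9 not past the threshold in edgeR. The median log2 fold change of the 11 was -2.21, also with Tgtp1 and Gbp11, which had no count in skin, set to their bounds. Both skin libraries lay below all lymph node libraries for 9 of the 11, a pattern of 33.5% of all tested genes. Tgtp1, an effector IRG with a near-identical copy, was at 24.9, 15.8 and 24.1 CPM in lymph node libraries, while none were counted in the skin libraries, which puts it at least 151-fold lower there (adjusted p = 0.0452). Tgtp2, that copy, was at 47.3, 27.8 and 50.1 CPM against 14.0 and 8.39 CPM (adjusted p = 0.165). Reads that aligned to both copies were given to neither. The values of Tgtp1 and Tgtp2 therefore rest on reads that tell them apart, and how much was left out is unknown. Gbp10 fell from 11.7, 8.94 and 9.31 CPM to 0.0936 and 0.200 CPM (3 counts in all, adjusted p = 0.0494), and it shares windows of 100 bases with Gbp8. Ifi47, another IRG, resembled Irgm1, with 968, 638 and 956 CPM in lymph node libraries, but 194 CPM and 0.799 CPM in skin libraries 1 and 2 (adjusted p = 0.319). Iigp1, an effector IRG, was at 67.9 ± 10.4 CPM in lymph node, and at 34.9 CPM and 0 in skin (adjusted p = 0.60). Gm12250, an IRG that GENCODE M21 labels a processed pseudogene, was at 197 ± 61.4 and 68.2 ± 41.2 CPM (adjusted p = 0.133). Whether it makes a protein cannot be read from that label or from counts. Gm12185 (5.61 ± 1.65 and 0.0999 ± 0.141 CPM), Gbp11 (1.75 ± 0.638 CPM and no count), 9930111J21Rik1 (22.3 ± 6.04 and 12.9 ± 12.3 CPM) and 9930111J21Rik2 (0.907 ± 0.136 and 0.187 ± 0.265 CPM) did not pass. Gbp2b, Irgc1, Gm4951 and F830016B08Rik did not reach the minimum count in enough libraries to be tested. Gm4951 was at 31.4 CPM in skin library 1 and at most 0.314 CPM in the other 4.

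Upstream of the GTPases, interferon-γ signalling genes showed no shared direction. Of 14 tested, 0 were higher and 0 lower in edgeR, 7 had a positive and 7 a negative fold change, and the median log2 fold change was 0.08. The receptor chain genes overlapped between the sources. Ifngr1 was at 345, 425 and 449 CPM in lymph node and 466 and 339 CPM in skin libraries (log2 fold change -0.01 with an SE of 0.25, adjusted p = 0.978). Ifngr2 was at 42.2 ± 10.6 and 48.8 ± 14.3 CPM (adjusted p = 0.861), and the kinase gene Jak1 at 608 ± 53.1 and 689 ± 66.4 CPM (adjusted p = 0.595). Irf1, a transcription factor that interferon-γ induces and that drives GBP genes, was at 641, 641 and 669 CPM against 567 and 563 CPM (log2 fold change -0.20 with an SE of 0.17, adjusted p = 0.493). Ifng, the cytokine gene, was at 4.07, 3.21 and 1.83 CPM in lymph node libraries and without counts in either skin library, which is at least 20.8-fold lower (adjusted p = 0.0564).

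**Figure D5:**
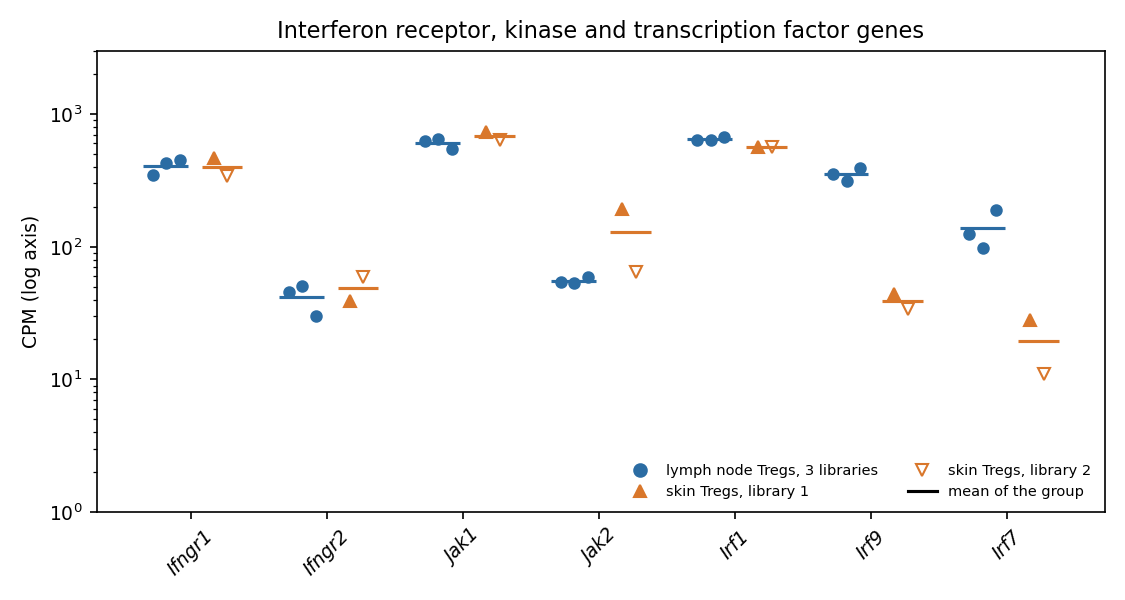
CPM on a log axis of interferon receptor, kinase and transcription factor genes in each lymph node library (blue circles), skin library 1 (filled triangles) and skin library 2 (open triangles), with group means as lines. Ifngr1, Ifngr2 and Jak1 overlap between groups, Irf1 differs little, and Irf9 and Irf7 lie lower in both skin libraries.

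Where 5.3% of all tested genes were lower, 0 of the 8 type I interferon signalling genes tested were higher and 1 lower. That gene was Irf9, the DNA-binding part of the complex that reads ISREs, at 355, 312 and 395 CPM in lymph node libraries and at 44.4 and 33.9 CPM in skin libraries (log2 fold change -3.18 with an SE of 0.30, edgeR adjusted p = 0.0224). The receptor gene Ifnar1 was at 328 ± 125 and 352 ± 289.9 CPM (adjusted p = 0.939). The list's median log2 fold change was -0.39.

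Other genes that interferon-γ induces had fold changes in both directions. Of 21 tested, 3 were lower, where 5.3% of all tested genes were, 0 higher and 18 without a call. The fold change was positive for 7 and negative for 14, with a median log2 fold change of -0.45. Both skin libraries lay below all lymph node libraries for 11, a pattern of 33.5% of all tested genes. They lay above for Ciita, at 1.76 ± 1.59 and 32.2 ± 24.5 CPM (log2 fold change 4.18 with an SE of 1.21, edgeR adjusted p = 0.0827). Pml, which forms nuclear bodies, fell from 106, 119 and 147 CPM to 3.84 and 4.09 CPM (log2 fold change -4.96 with an SE of 0.50, edgeR adjusted p = 0.0253). Samhd1, a nucleotide hydrolase that restricts retroviruses, fell from 1548 ± 231 to 717 ± 104 CPM (adjusted p = 0.0484), and Lap3, an aminopeptidase, from 64.6 ± 10.7 to 4.99 ± 2.83 CPM (adjusted p = 0.0496). The most abundant of the list, B2m, the light chain of MHC class I, and Ly6e did not pass, at 4557 ± 1137 and 3342 ± 276 CPM (adjusted p = 0.305) and at 2327 ± 329 and 2708 ± 353 CPM (0.528).

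The interleukin-27 and interleukin-12 receptor pathway, which can also induce these GTPases in T cells, had 0 of 8 tested genes higher and 0 lower, with a median log2 fold change of -1.28. Il27ra was at 459 ± 65.7 and 288 ± 97.6 CPM (adjusted p = 0.208) and Stat4 at 213, 267 and 243 CPM against 5.24 and 109 CPM (0.307). The ubiquitin-like conjugation genes that help place GBPs and IRGs on membranes had 0 of 12 tested genes higher and 0 lower (median log2 fold change 0.35). Gabarap was at 311 ± 96.5 and 430.4 ± 113 CPM (adjusted p = 0.425) and Map1lc3b at 317 ± 45.7 and 269 ± 68.6 CPM (0.635). Other dynamin superfamily genes had 0 of 9 higher and 0 lower (median log2 fold change -0.05), led by Dnm2 at 202 ± 52.9 and 324 ± 41.8 CPM (adjusted p = 0.202) and Dnm1l at 124 ± 15.0 and 138 ± 3.10 CPM (0.787).

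Of 8 inflammasome genes listed, Nlrp3 had no count in any library. Among the 7 tested, 1 was higher, where 2.4% of all tested genes were, and 0 lower. Il1b, a cytokine gene of myeloid cells, rose from 1 count over the lymph node libraries to 33.6 and 19.3 CPM in the skin libraries (adjusted p = 0.0452), where macrophage markers were also higher. Their part in it was not tested. Pycard, the inflammasome adaptor, was at 342 ± 64.4 and 167 ± 7.51 CPM (adjusted p = 0.0642) and Gsdmd, the pore-forming gasdermin D, at 94.9 ± 12.2 and 70.2 ± 17.6 CPM (0.532).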

How the data were processed

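The deposited table holds raw whole-number counts per gene symbol, 1 column per library. CASAVA 1.8.2, TopHat2 2.0.12, Bowtie2 2.1.0.0, SAMtools 0.1.19.0, HTSeq 0.6.1 and the build mm10 are named for the authors' processing in the submitters' processing notes. Libraries were made with a SMARTer Ultra Low Input kit, per the labels, and the strand setting and the annotation were not stated. The header was read as shifted by 1 cell. The 5 HTSeq summary rows were left out. The row for reads aligning to several places held 64.5 to 72.0% of all counts, that for reads outside genes 8.35 to 14.0% and that for ambiguous ones 0.400 to 0.433%. These are shares of tallied counts and need not equal shares of reads.

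Counts were fitted with edgeR 4.0.16 in R 4.3.3 (filterByExpr, minimum count 10, TMM, quasi-likelihood F test, Benjamini-Hochberg over 11437 genes, threshold 0.05). The SE is the log2 fold change divided by the square root of F. A group without counts allows 3 counts, that is 0.145 CPM over the skin libraries, which covers counting error only. Exact permutation of 2 against 3 libraries was not used, since it cannot reach the threshold. Alternatives were DESeq2 1.42.0, limma-voom (limma 3.58.1), other scalings and filters, a replicate block and leaving out each library. Members, lists and the rule for named genes (all members, counted family members, and from each list the called and the most abundant genes) were chosen with earlier results of these data known. Irf7, Cd8a, Ctla4, the Cd3 genes, Cd4 and the macrophage markers at 0 were named after their values were seen. So were Itgax, Cd207, Clec9a, Krt1, Krt10, Lor, Ciita and Nlrp3. The same holds for Cdh5, Vwf, Pdgfra, Col1a2, Col3a1, Dcn, Lum, Kdr, Mrc1, Itgam and Cd14. Some genes the rule takes are not reported here.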

Additional observations from a re-analysis of the deposited data

How the results depend on the processing

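Gbp5 stayed positive (log2 fold change 1.37 to 2.92) and Igtp negative (-1.57 to -1.19) in all 13 alternatives. Among fits that kept both skin libraries, Gbp5 passed the threshold with DESeq2, and Igtp with DESeq2 and the stricter filter. Gbp2, Gbp3, Gbp6, Gbp8, Gbp9 and Irgm1 stayed negative in all 13. Gbp7 turned negative with limma-voom (-0.013), upper-quartile scaling (-0.10), no scaling factor (-0.0075), without lymph node library 1 (-0.02) and without skin library 1 (-0.47), and was at 0.40 without skin library 2. Gbp4 turned positive without skin library 2 (0.15) and was at -0.68 without skin library 1. Upper-quartile scaling moved the median of all genes by -0.15. Shifts were larger with limma-voom (-0.64), with the replicate block (-0.64) and without skin library 1 (-0.60). Higher and lower genes numbered 275 and 606, but 1220 and 2140 with DESeq2, 566 and 1665 with limma-voom, and 136 and 179 without a filter. Members called higher and lower were 1 and 1 with DESeq2 and 0 and 1 with the stricter filter. Leaving out 1 library gave 0 to 2110 higher and 0 to 3955 lower genes, and 0 to 1 higher and 0 to 5 lower members. The counts were 0 without any 1 lymph node library, where 2361 to 2485 genes had an unadjusted p under 0.05. With the replicate block, 11 genes were higher, 10 lower and 0 members called. Whether same-numbered libraries came from the same animals is not stated. Their deviations from the group mean correlated at -0.03 and -0.02 in the 2 pairs. With 2 skin libraries the deviations of 1 mirror those of the other, so this cannot decide whether they are paired. The cause of these changes was not tested. Counting error is widest for Gbp8 and Irgm1 in skin library 2, at 24 and 53 counts, although the gene counts of the skin libraries, 10787378 and 10468795, were close.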
